A study of Nannospalax ehrenbergi and Mus musculus with 14 samples.

Results

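The miR-221 and miR-222 cluster is a pair of microRNA genes whose hairpins each release a microRNA from both arms, giving miR-221-3p, miR-221-5p, miR-222-3p and miR-222-5p. Both deposited tables, 1 for *Spalax* and 1 for mouse, were searched for rows with these 4 names. All 4 of the 4 members were found in each table, among 1326 microRNA names, and no other name held the same values as a member. All 4 also passed the filter on low values, which left 447 microRNAs for testing in *Spalax* and 547 in mouse.

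*Spalax*, the blind mole rat (*Nannospalax ehrenbergi* in the labels), and C57BL/6 mice were given 1 subcutaneous injection of 3-methylcholanthrene (3MCA), a chemical carcinogen, at the left flank of the neck. The injected side (IS) is the growth that arose there, and the uninjected side (UIS) is neck muscle from the opposite flank of an animal that had also received 3MCA, so no library used here came from an untreated animal. The animals are named here by their number in the labels after Sp for *Spalax* or M for mouse. Sp600 and Sp976 had granulomas, a benign inflammatory growth, removed 14 and 16 months after the injection. Sp2240 and Sp2230 had fibrosarcomas, a malignant growth of connective tissue, removed at 18 and 30 months. *Spalax* received 1 mg of 3MCA in 500 µl, were caught in the field, and were estimated to be 2 to over 10 years old. M512, M1023 and M1019 had fibrosarcomas removed at 11, 12 and 14 weeks, received 200 µg in 200 µl, and were 3 to 4 months old. The labels give no genetic modification in either species, and they call the tissue of both sides muscle. By the labels Sp600, Sp976 and Sp2240 are female and Sp2230 and the mice are male, so sex differs between the 2 *Spalax* with fibrosarcoma. Each side of a *Spalax* condition is 2 animals and each mouse side is 3. No column carries the number of the mouse UIS library labelled for M1019, and 1 mouse UIS column carries an animal number that no label gives. That column counts as a UIS replicate and is called the unnumbered mouse UIS library. It is not paired with any IS library.

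The 14 libraries held 2034574 to 13982842 reads on microRNAs, and at the UIS every library held more than at the IS of the same condition. The tissue also differed between the sides: 7 muscle microRNAs took 27.7% to 37.3% of the reads at the UIS and 0.00959% to 3.94% at the IS. The IS libraries of M1023 and M512 held the most of these at an IS. Values are given on 2 scales. A normalized count is a deposited value, reads divided by a size factor for its library, and a share is the percentage of all microRNA reads in the library. The 2 tables were normalized separately, so normalized counts are compared within a species.

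A microRNA gene is transcribed into a hairpin that is cut to a short duplex, and one strand of it, the guide, is loaded into an Argonaute protein and pairs with messenger RNAs through its seed, the bases near its 5′ end. The other strand, the passenger, is mostly degraded, so it usually gives fewer reads. In this cluster the 3p strands are the usual guides. miR-221-3p and miR-222-3p share their seed and are known to repress Cdkn1b, an inhibitor of the cell cycle, and Kit, a receptor tyrosine kinase; they are often raised in human cancers and in proliferating vascular smooth muscle cells.

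In the mouse annotation (GENCODE M21, GRCm38), Mir222 lies at chrX:19146893-19146971 and Mir221 at chrX:19146294-19146388, both on the minus strand, with 504 bases between them. No other annotated gene overlaps the pair. The nearest are Gm14636, a processed transcript on the same strand that lies 10009 bases from Mir222 at higher coordinates, and Gm5383, a processed pseudogene 203065 bases away at lower coordinates. The hairpin transcripts are shown because the 2 genes are related and share stretches of letters in both arms. They are written 5′ to 3′ as DNA, and capitals mark the longest stretch that the 5′ arms share and the longest that the 3′ arms share, each hairpin being split at its middle.
Mir222 hairpin, 79 bases: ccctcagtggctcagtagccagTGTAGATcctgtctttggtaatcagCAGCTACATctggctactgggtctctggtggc
Mir221 hairpin, 95 bases: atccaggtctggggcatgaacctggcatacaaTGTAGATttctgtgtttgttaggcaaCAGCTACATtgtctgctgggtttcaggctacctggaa
The stretch in the 3′ arms, from which the 3p strands come, is CAGCTACAT, of 9 bases, at positions 48 to 56 of Mir222 and 59 to 67 of Mir221. It occurs in 3 of the 2202 microRNA transcripts of the annotation, or 0.136%, and the third is Mir5112. The stretch in the 5′ arms, TGTAGAT, is 7 bases long and occurs in 13 of the 2202, or 0.590%. Only the strand as transcribed was searched. The sequences are those of the mouse, and *Spalax* sequences were not used here.

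The comparison of the IS with the UIS asks what the growth at the injection site holds that the animal's own muscle does not. All 4 members were higher at the IS than at the UIS in each of the 6 animals with both sides, and in each condition every IS library was above every UIS library for each of the 4. That last property was common: it held for 41.4% of all tested microRNAs in granuloma, for 32.2% in the fibrosarcomas of *Spalax* and for 36.6% in those of mouse. The cluster together took 0.00692% to 0.0371% of the reads of a UIS library and 0.378% to 3.05% of an IS library. The 3p strands made up 94.97% to 98.2% of the cluster's reads in every library. In these bulk samples, fewer cells of a type and less RNA per cell cannot be told apart.

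**Figure D1:**
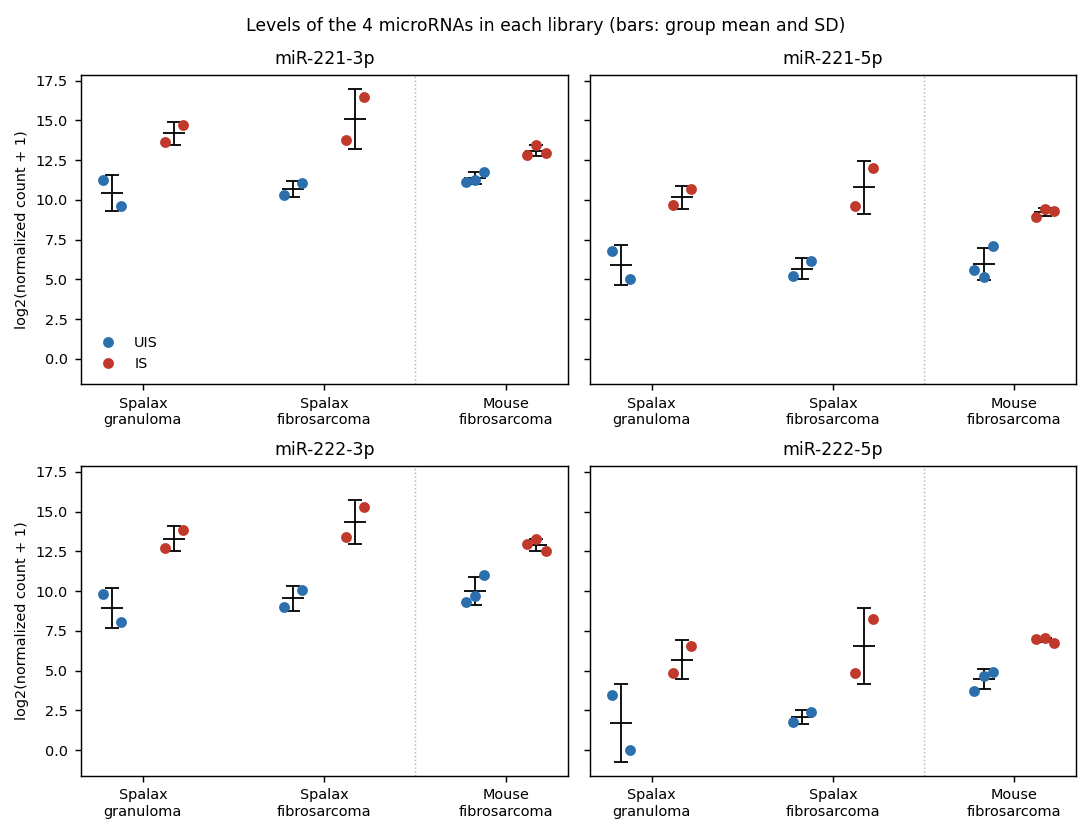
Levels of the 4 members in each of the 14 libraries as log2(normalized count + 1), UIS in blue and IS in red, by condition, with the group mean and SD as bars; the dotted line separates the species, whose values are on different scales. In every panel and condition the red points lie above the blue ones, and for each member but miR-222-5p the *Spalax* fibrosarcoma IS points lie farthest apart.

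miR-221-3p was the most abundant member in 13 of the 14 libraries. In granuloma its normalized counts were 2419 and 790.3 at the UIS of Sp600 and Sp976 and 12929 and 26828 at the IS. The sides did not overlap, and the animal with the lower UIS value had the higher IS value. In *Spalax* fibrosarcoma the values were 1271 and 2101 at the UIS of Sp2230 and Sp2240 and 14005 and 89303 at the IS. The fibrosarcoma of Sp2240 stood apart from the 3 other *Spalax* growths: miR-221-3p took 2.02% of its reads (95% exact binomial interval 2.00% to 2.04%, counting error only) and was the 13th most abundant microRNA, against 0.322% in the fibrosarcoma of Sp2230, where it ranked 42nd. Sp2240 is female and its growth was removed at 18 months, and Sp2230 is male with removal at 30 months. The IS library of Sp2240 was also the shallowest of the 14, with 2034574 reads against 7991923 at the IS of Sp2230. With 1 animal of each, sex, time after injection, depth and animal cannot be told apart. In mouse the values were 2230.5, 2392 and 3510.3 at the UIS of M1023 and M512 and in the unnumbered library, and 11426, 7962 and 7292 at the IS of M1023, M512 and M1019. The mouse IS libraries lay within 1.57-fold of each other, closer than the 6.38-fold between the 2 *Spalax* fibrosarcomas.

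miR-222-3p, the guide of Mir222, put the *Spalax* animals of each group in the same order as miR-221-3p. Its normalized counts in granuloma were 898 and 266 at the UIS of Sp600 and Sp976 and 6862 and 14792 at the IS. The *Spalax* with fibrosarcoma had 503 and 1103 at the UIS of Sp2230 and Sp2240 and 10787 and 40813 at the IS. Again the sides were separate, and the fibrosarcoma of Sp2240 was the highest library. In mouse the values were 637, 826 and 2086 at the UIS of M1023 and M512 and in the unnumbered library, and 9954, 5814 and 7878 at the IS of M1023, M512 and M1019. The unnumbered UIS library was the highest mouse UIS library for all 4 members, and M1023 the highest IS library for all 4.

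miR-221-5p, the passenger strand of Mir221, gave 109 and 31.8 normalized counts at the UIS of granuloma-bearing Sp600 and Sp976 and 811 and 1654 at the IS. In *Spalax* fibrosarcoma it gave 36.1 and 70.0 at the UIS of Sp2230 and Sp2240 and 779 and 4042 at the IS. Both conditions show the order of animals seen for the guides. In mouse the values were 48.0, 34.6 and 136 at the UIS of M1023 and M512 and in the unnumbered library, and 685, 622 and 494 at the IS of M1023, M512 and M1019.

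miR-222-5p, the passenger strand of Mir222, was the rarest member in every library and rested on few reads at the UIS. In granuloma it had 7 reads (9.92 normalized counts) and 0 reads at the UIS of Sp600 and Sp976, and 22 and 73 reads (27.5 and 92.5) at the IS. The 0 reads allow a share of up to 2.43e-05% of that library, and against that limit of 3 reads the IS of Sp976 was at least 24.3-fold higher in normalized counts. In *Spalax* fibrosarcoma it had 2 and 4 reads (2.41 and 4.31) at the UIS of Sp2230 and Sp2240 and 51 and 140 reads (27.8 and 304) at the IS. In mouse it had 9, 13 and 22 reads (12.4, 25.0 and 29.9) at the UIS of M1023 and M512 and in the unnumbered library, and 182, 97 and 343 reads (132, 108 and 124) at the IS of M1023, M512 and M1019.

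Fold changes were tested with limma on log2(normalized count + 1), a scale that understates the change of microRNAs with few reads, with Benjamini-Hochberg adjustment of p over the whole table of tested microRNAs. A change is called when its adjusted p is under 0.05. Libraries of 1 side count as separate animals. These p-values rest on the spread between libraries of a group, pooled over all groups of a species. That gives each microRNA the same SE in both *Spalax* conditions. Without a replicate block for the animal, the sides of 1 animal are treated as independent. With reads scaled to library totals in place of the deposited size factors, all 4 members were called higher in each condition. That scaling raised most microRNAs: 253 were called higher and 50 lower in granuloma (114 and 102 with the deposited factors), 193 and 41 in *Spalax* fibrosarcoma (68 and 99) and 373 and 31 in mouse (176 and 140).

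In granuloma, 3 of the 4 members were called higher at the IS, where 25.5% of the tested microRNAs were called higher. miR-222-3p rose by 4.36 on the log2 scale (SE 0.85, adjusted p = 0.00543), the 10th largest rise among the 447 tested. miR-221-5p rose by 4.27 (SE 0.92, adjusted p = 0.00849) and miR-221-3p by 3.75 (SE 0.92, adjusted p = 0.0135). miR-222-5p, with 0 reads in 1 UIS library, had a log2 fold change of 3.96 (SE 1.43, adjusted p = 0.0531) and was not called; a replicate block for the animal gave an adjusted p of 0.0402. Its fold change depends on the 1 added to each value and is no bound. The median change of all tested microRNAs was 0.13. The calls of the miR-221 strands rest on the UIS library of Sp976: without it, the log2 fold change of miR-221-3p was 2.94 (adjusted p = 0.0966) and that of miR-221-5p was 3.40 (adjusted p = 0.0629), and 1 of the 4 members was called.

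In *Spalax* fibrosarcoma, all 4 members were called higher at the IS, against 15.2% of the tested microRNAs. miR-221-5p rose by 5.11 (SE 0.92, adjusted p = 0.00499), the 3rd largest rise among the 447 tested, and miR-222-3p by 4.81 (SE 0.85, adjusted p = 0.0046), the 6th largest rise. miR-221-3p rose by 4.43 (SE 0.92, adjusted p = 0.00909), and miR-222-5p by 4.46 (SE 1.43, adjusted p = 0.0419). The median change of all tested microRNAs was -0.23. Leaving out the UIS of Sp2230 ended the calls of miR-221-3p (4.07, adjusted p = 0.0671) and miR-222-5p (4.14, adjusted p = 0.171). Leaving out the fibrosarcoma of Sp2240 gave log2 fold changes of 3.10 for miR-221-3p and 2.76 for miR-222-5p, and the latter was then not called (adjusted p = 0.190). Without the UIS of Sp2240, miR-222-5p was also not called (4.78, adjusted p = 0.139).

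In mouse fibrosarcoma, all 4 members were called higher at the IS, against 32.2% of the tested microRNAs. miR-221-5p rose by 3.26 (SE 0.56, adjusted p = 0.00393), miR-222-3p by 2.90 (SE 0.50, adjusted p = 0.00414), miR-222-5p by 2.47 (SE 0.46, adjusted p = 0.00531) and miR-221-3p by 1.71 (SE 0.34, adjusted p = 0.00588). The median change of all tested microRNAs was 0.21. Ranked from the largest rise down, miR-221-3p stood 166th of 547, and the others 55th, 90th and 123rd. All 4 calls held without any 1 of the 6 libraries.

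**Figure D2:**
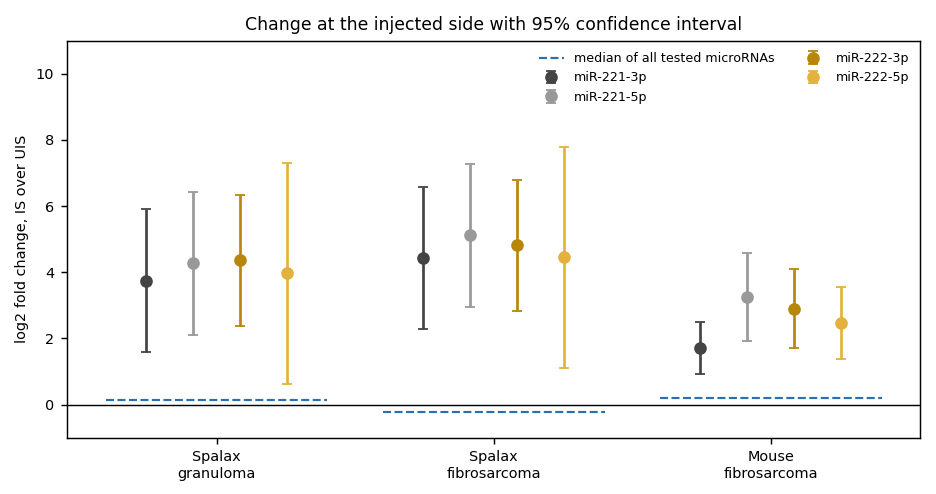
Log2 fold change of the 4 members at the IS over the UIS in each condition, with 95% confidence intervals from limma; the dashed line is the median change of all microRNAs tested in that condition. The *Spalax* points lie between 3.75 and 5.11 with wide intervals, and the mouse points between 1.71 and 3.26 with narrower ones.

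Within an animal, the fold between the sides spanned a wide range. miR-221-3p was 3.33-fold higher at the IS in M512 and 42.5-fold higher in Sp2240 in normalized counts, and the other animals lay between. miR-222-3p ran from 7.04-fold in M512 to 55.7-fold in Sp976. As shares of all microRNA reads the folds were larger, 19.6 to 135 for miR-221-3p and 28.0 to 196 for miR-222-3p. The direction was the same on both scales for all 4 members in all 6 animals.

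Whether the benign and the malignant growths of *Spalax* differ in the cluster was asked with the difference of the granuloma and fibrosarcoma changes. None of the 4 members was called, where 3.8% of the tested microRNAs were (17 of 447, and 5 with a replicate block for the animal). The granuloma change was lower by 0.68 on the log2 scale for miR-221-3p (log2 difference -0.68, 95% confidence interval -3.73 to 2.36, adjusted p = 0.809) and by 0.84 for miR-221-5p (-0.84, interval -3.90 to 2.21, adjusted p = 0.772). For miR-222-3p the difference was -0.45 (interval -3.26 to 2.36, adjusted p = 0.856) and for miR-222-5p -0.50 (interval -5.22 to 4.23, adjusted p = 0.915). These intervals hold differences of more than 4-fold in either direction, so 2 animals a condition leave the comparison undecided. Without the fibrosarcoma of Sp2240 all 4 differences changed sign, to between 0.34 and 1.21, and without the UIS of Sp600 they did too, to between 0.03 and 1.23.

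The UIS of fibrosarcoma-bearing *Spalax* was set against the UIS of granuloma-bearing *Spalax*, muscle against muscle. No member was called, and neither was any other microRNA (0% of 447 by limma, with 5 at an unadjusted p under 0.05; edgeR and DESeq2 also called 0, with 7 and 10 at an unadjusted p under 0.05). The log2 differences were 0.24 for miR-221-3p (95% confidence interval -1.91 to 2.40), -0.23 for miR-221-5p (interval -2.39 to 1.93), 0.61 for miR-222-3p (interval -1.38 to 2.59) and 0.36 for miR-222-5p (interval -2.98 to 3.70), each with an adjusted p of 1.

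The 2 strands of a hairpin come from the same transcript, so the ratio of their reads within a library does not depend on any size factor. It is a ratio of reads, not of molecules, since library kits take up some sequences more readily than others. For miR-221 the guide gave 22.2 and 24.9 reads for each passenger read at the UIS of granuloma-bearing Sp600 and Sp976 and 15.9 and 16.2 at the IS. In *Spalax* fibrosarcoma the ratio was 35.2 and 30.0 at the UIS of Sp2230 and Sp2240 and 18.0 and 22.1 at the IS. In mouse it was 46.4, 69.2 and 25.9 at the UIS of M1023 and M512 and in the unnumbered library, and 16.7, 12.8 and 14.8 at the IS of M1023, M512 and M1019. In each condition every IS ratio lay under every UIS ratio. The passenger had only 18 to 100 reads at the UIS, and ratios of hairpins outside the cluster were not examined. Within animals the log2 ratio was smaller at the IS in 6 of 6 pairs, by 1.05 ± 0.76 on average (log2 difference -1.05, SD 0.76, n = 6). An exact two-sided permutation of signs over the pairs gave p = 0.0312, which no set of 6 pairs can go under (adjusted p = 0.0938 over the 3 ratios tested), so it did not pass the threshold after adjustment. Taken over all 14 libraries without pairing, the difference was -0.92 (exact permutation of the sides within conditions, adjusted p = 0.00833). That permutation treats the 2 sides of 1 animal as independent, so it does not replace the paired test. Its unadjusted p is also the smallest it can give.

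For miR-222 the guide gave between 134 and 388 reads for each passenger read in the 4 *Spalax* IS libraries and 90.6, 209 and 256 in the 3 *Spalax* UIS libraries with a passenger read. In mouse the ratio was 53.9 to 75.7 at the IS and 33.1 to 69.9 at the UIS, under every *Spalax* library. That difference between the species was not tested, and how the reads of each species were assigned to microRNA names cannot be told apart from it. Between the sides the log2 ratio was higher at the IS in 4 of 6 pairs and lower in 2, with a mean difference of 0.32 (SD 1.15, n = 6; exact permutation by sign flips, p = 0.562, adjusted p = 0.562). It turns negative, to -0.15, when 0.1 read is added in place of 0.5, since 1 UIS library has 0 passenger reads.

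The 2 guides were compared with each other in the same way. Whether reads that fit both were split between them is not given in the sources used here. At the UIS there were 2.69 and 2.98 miR-221-3p reads for each miR-222-3p read in granuloma-bearing Sp600 and Sp976, and at the IS 1.88 and 1.81. In *Spalax* fibrosarcoma the ratio was 2.53 and 1.91 at the UIS of Sp2230 and Sp2240 and 1.30 and 2.19 at the IS, so Sp2240 was the 1 animal with a higher ratio at the IS. In mouse it was 3.502, 2.90 and 1.68 at the UIS of M1023 and M512 and in the unnumbered library, and 1.15, 1.37 and 0.926 at the IS of M1023, M512 and M1019; M1019 IS is the only library with more miR-222-3p than miR-221-3p reads. The log2 ratio was smaller at the IS in 5 of 6 pairs, by 0.78 on average (log2 difference -0.78, SD 0.61, n = 6, exact permutation by sign flips p = 0.0625, adjusted p = 0.0938). Over all 14 libraries without pairing the difference was -0.73 (exact permutation, adjusted p = 0.0125), which again treats the sides of 1 animal as independent.

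**Figure D3:**
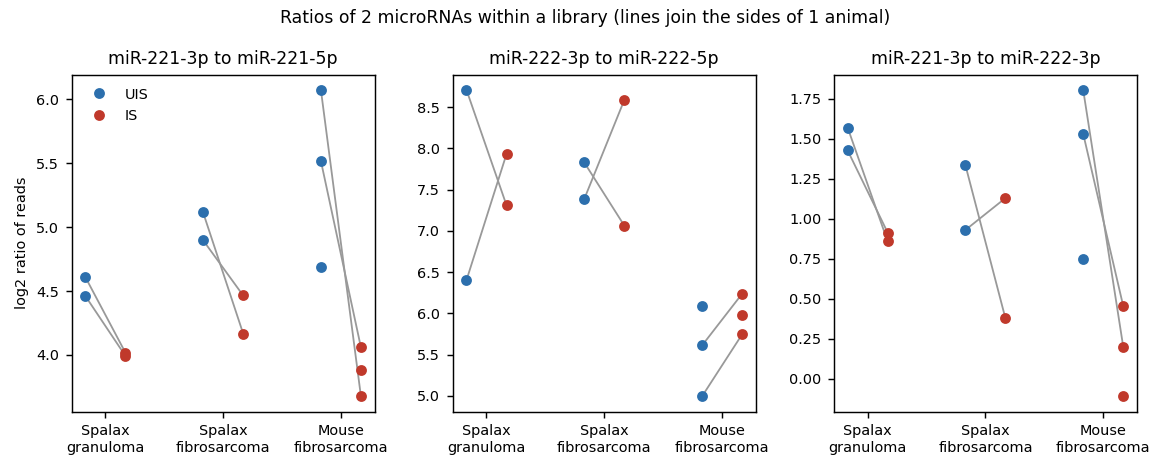
Log2 ratios of reads within each of the 14 libraries for miR-221-3p to miR-221-5p, miR-222-3p to miR-222-5p and miR-221-3p to miR-222-3p, UIS in blue and IS in red, with lines joining the sides of 1 animal; axes do not start at 0 and differ between panels. All 6 lines fall in the first panel, 5 of 6 fall in the third, and in the second they go both ways.

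The microRNAs whose levels followed the guides most closely were found by Pearson's r of log2(normalized count + 1) over the libraries of a species, given as a description because these libraries share the contrast between the sides. Over the 8 *Spalax* libraries, miR-221-5p (r = 0.993) and miR-222-3p (r = 0.993) stood first and second for miR-221-3p among 446 microRNAs, and miR-221-3p and miR-221-5p (r = 0.990) stood first and second for miR-222-3p. miR-222-5p stood 5th for miR-221-3p (r = 0.981) and 10th for miR-222-3p (r = 0.967). Outside the cluster, miR-221-3p was most like miR-193a-3p (r = 0.986), miR-130a-3p (r = 0.984) and miR-322-5p (r = 0.981). miR-222-3p was most like miR-322-5p (r = 0.986), miR-142a-3p (r = 0.981), a microRNA of blood cells, and miR-21a-3p (r = 0.979). Over the 6 mouse libraries the closest to miR-221-3p were miR-673-3p (r = 0.997), miR-410-3p (r = 0.995) and miR-34b-3p (r = 0.994), and the closest to miR-222-3p were miR-667-5p (r = 0.990), miR-341-3p (r = 0.988) and miR-125b-1-3p (r = 0.988). There miR-222-3p stood 13th for miR-221-3p (r = 0.982) among 546 microRNAs, and miR-221-3p stood 9th for miR-222-3p. For miR-221-3p, miR-221-5p stood 27th (r = 0.976) and miR-222-5p 40th (r = 0.965). For miR-222-3p they stood 12th (r = 0.978) and 14th (r = 0.976). No name outside the cluster was among the first 3 in both species for either guide.

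Other microRNAs that mark cell types, or that are known to act on the cell cycle, are set beside the cluster here. Their counts are to be read against the shares of all tested microRNAs called higher, 25.5%, 15.2% and 32.2% in granuloma, *Spalax* fibrosarcoma and mouse, and called lower, 22.8%, 22.1% and 25.6%. Of 10 microRNAs known to promote the cell cycle (the miR-17-92 and miR-106b-25 clusters and miR-21a-5p), 3 were called higher at the granuloma IS, 7 at the *Spalax* fibrosarcoma IS and 4 at the mouse IS, and none lower, with median log2 fold changes of 0.39, 1.93 and 1.06. The largest change was that of miR-21a-5p in granuloma (3.63, SE 0.45, adjusted p = 0.00082) and in mouse (3.04, SE 0.29, adjusted p = 0.000581), and that of miR-19a-3p in *Spalax* fibrosarcoma (4.28, SE 0.75, adjusted p = 0.00456). The counts in granuloma and mouse are near those shares. The lowest values were those of miR-20a-5p in granuloma (-0.66), miR-93-5p in *Spalax* fibrosarcoma (0.92) and miR-25-3p in mouse (-0.69), none of them called. The cluster's medians were 4.12, 4.64 and 2.68 in the same order. Of 12 microRNAs known to restrain the cell cycle (such as let-7, miR-15 and miR-16), 1 was called higher and 3 lower in granuloma, 2 higher and 3 lower in *Spalax* fibrosarcoma and 0 higher and 6 lower in mouse, with medians of -0.02, 0.24 and -0.97. The 3 of 12 called lower in each *Spalax* condition are also near the share of all tested microRNAs. miR-15b-5p had the highest value of that list in all 3 conditions (1.99, 2.15 and 1.26, the last not called). The lowest were miR-101a-3p in granuloma (-3.13) and miR-26a-5p in *Spalax* fibrosarcoma (-2.24) and mouse (-3.02), all called.

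Leukocytes and fibroblasts are cells that such growths can hold. Of 8 leukocyte microRNAs, 5 were called higher in granuloma, 5 at the IS of *Spalax* fibrosarcoma and 3 in mouse, with medians of 2.44, 2.90 and 1.59. The mouse count is near the 32.2% of all tested microRNAs called higher. miR-223-3p of neutrophils and monocytes changed most in *Spalax* (4.39 in granuloma and 4.86 in fibrosarcoma), and miR-142a-3p most in mouse (2.21). miR-150-5p of mature lymphocytes had the lowest value of the list in each condition (-2.05, called in granuloma; -1.49 and -2.17, not called). Together they took 0.0732% to 0.150% of the UIS reads and 0.439% to 2.64% of the IS reads, and none was at 0 in a whole group. Of 5 fibroblast microRNAs (miR-199 and miR-214), 5 were called higher in granuloma, 0 at the IS of *Spalax* fibrosarcoma and 4 in mouse, with medians of 3.05, 0.80 and 2.07. Their highest values were those of miR-199a-5p in granuloma (3.61), miR-199b-5p in *Spalax* fibrosarcoma (1.28, not called) and miR-214-3p in mouse (2.36), and miR-199a-3p was lowest in each (2.60, 0.60 and 1.14, the second not called). Their summed share was 11.7% to 11.8% in granuloma IS, 3.22% to 6.60% in *Spalax* fibrosarcoma IS and 4.29% to 8.89% in mouse IS, against 0.233% to 1.10% at the UIS.

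For each 1000 reads of the leukocyte list, miR-221-3p had 324 and 471 reads at the IS of Sp600 and Sp976, 273 and 766 at the IS of Sp2230 and Sp2240, and 303, 472 and 85.0 in the IS libraries of M1023, M512 and M1019. At the UIS it had 68.7 to 150 in the 7 libraries. Only the IS library of M1019 lay in that range, and it was under every mouse UIS library. Those had 120, 115 and 150 in M1023, M512 and the unnumbered library. miR-222-3p had 91.8 (M1019) to 350.01 reads for each 1000 at the IS and 23.1 to 89.4 at the UIS, with no overlap. For each 1000 reads of the fibroblast list, miR-221-3p had 24.8 and 50.7 reads at the granuloma IS against 26.0 and 12.2 at the UIS, in the order Sp600 and Sp976, and 31.5 to 48.4 at the mouse IS against 22.0 to 38.3 at the UIS, so the sides overlapped in both. In *Spalax* fibrosarcoma it had 48.8 and 628 at the IS against 13.5 and 13.7 at the UIS, in the order Sp2230 and Sp2240, with no overlap. miR-222-3p had 13.2 and 27.9 at the granuloma IS against 9.65 and 4.08 at the UIS, 37.6 and 287 at the *Spalax* fibrosarcoma IS against 5.34 and 7.17, and 27.4 to 49.1 at the mouse IS against 6.27 to 21.04, with no overlap within a condition. These ratios were added after the values were seen, and the part of leukocytes or fibroblasts in the higher levels of the cluster was not tested. How many of all tested microRNAs also separate the sides on these ratios was not counted. On normalized counts, 32.2% to 41.4% of them did so within a condition, with the IS above.

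On the deposited scale, markers of muscle, vessels and blood were lower at the IS or not called. Of 7 skeletal muscle microRNAs, 7 were called lower in granuloma, 7 at the IS of *Spalax* fibrosarcoma and 3 in mouse, with medians of -10.75, -12.98 and -6.28. Their extremes were miR-1a-3p (-11.86) and miR-208b-3p (-9.22) in granuloma, miR-133a-5p (-13.56) and miR-499-5p (-8.86) in *Spalax* fibrosarcoma, and miR-133a-3p (-8.44) and miR-208b-3p (-2.91, not called) in mouse; miR-133a-5p was at 0 in both *Spalax* fibrosarcoma IS libraries. Both strands of the endothelial miR-126a were called lower in all 3 conditions, by log2 fold changes of -2.08 (3p) and -2.52 (5p) in granuloma, -2.31 and -2.42 in *Spalax* fibrosarcoma and -2.35 and -2.28 in mouse, although miR-221 and miR-222 are also known in endothelial cells. Of the 4 smooth muscle strands of miR-143 and miR-145a, 2, 2 and 4 were called lower, with miR-143-5p highest (-0.26 and -0.85, not called) and miR-143-3p lowest in *Spalax* (-1.74 and -2.21), and miR-145a-3p highest (-1.498) and miR-145a-5p lowest (-2.69) in mouse. Of 4 red cell microRNAs, miR-486a-5p, which muscle also expresses, was the 1 called lower in each condition (-4.65, -4.26 and -5.47), and miR-144-3p had the highest value (-0.16, -0.19 and -1.20, not called). As summed shares of reads, the sides overlapped for smooth muscle in granuloma (1.68% to 1.76% at the UIS, 1.35% to 2.53% at the IS). In mouse they overlapped for smooth muscle (2.44% to 4.06% and 2.65% to 3.45%) and for endothelial microRNAs (0.323% to 1.10% and 0.343% to 1.64%). In the other conditions of these lists, and for skeletal muscle and red cells, every IS share lay under every UIS share.

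**Figure D4:**
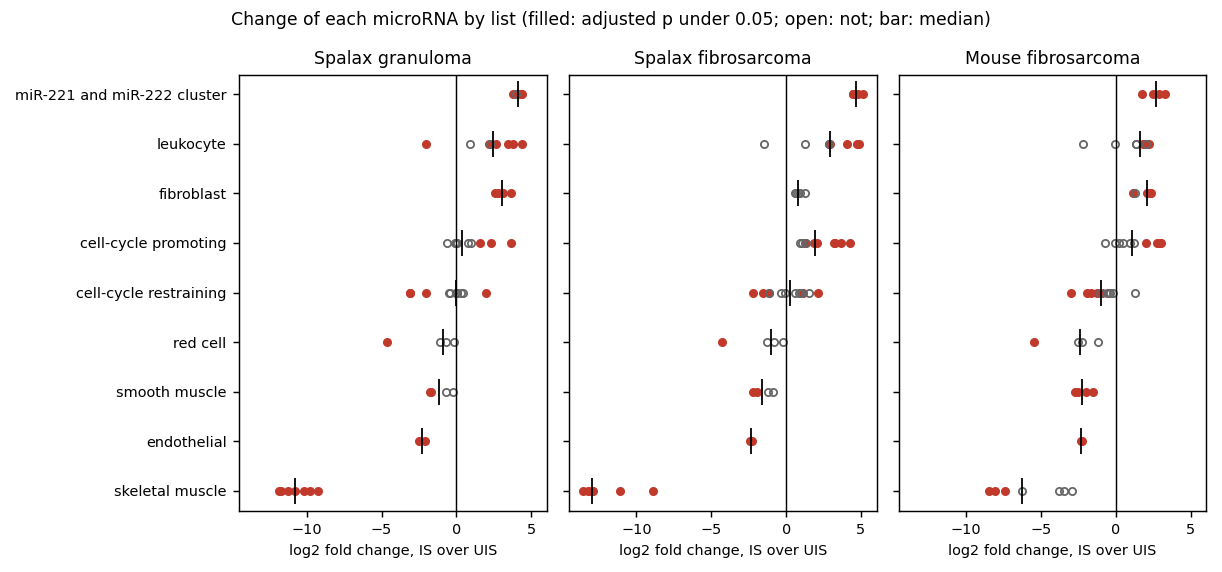
Log2 fold change at the IS over the UIS for each tested microRNA of the cluster and of 8 lists, in the 3 conditions; filled points had an adjusted p under 0.05, open points did not, and the bar is the list's median. The cluster's points lie to the right of 0 in all 3 panels, as most leukocyte and fibroblast points do, and the skeletal muscle points lie farthest to the left.

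On the scale set over both species, where 5 of the mouse libraries also have values, miR-221-3p had 6132 to 9502 normalized counts at the mouse fibrosarcoma IS, against 12929 to 89303 at the *Spalax* IS, and 1683 and 1942 at the numbered mouse UIS libraries, against 790.3 to 2419 at the *Spalax* UIS. miR-222-3p had 5178 to 8278 at the mouse IS, against 6862 to 40813 in *Spalax*. At the UIS it had 480.5 and 671 in mouse and 266 to 1103 in *Spalax*. miR-222-5p had 96.0 to 109 at the mouse IS and 27.5 to 304 at the *Spalax* IS, and 9.32 and 20.3 at the mouse UIS and 0 to 9.92 at the *Spalax* UIS. miR-221-5p had 415 to 570 at the mouse IS, against 779 to 4042 at the *Spalax* IS. At the UIS it had 28.1 and 36.2 in mouse and 31.8 to 109 in *Spalax*. The ranges of the species overlapped for miR-222-3p and miR-222-5p at both sides and for miR-221-3p and miR-221-5p at the UIS. At the IS, both miR-221 strands were higher in every *Spalax* library than in any mouse library. No test was made between the species, since species, dose, time after injection, age and sex cannot be told apart between them.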

How the data were processed

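Small RNA libraries (TruSeq Small RNA kit) of the injected and uninjected sides were analysed; the RNA-Seq libraries of the study were not used here. According to the paper's methods, the authors removed adaptors, used mirDeep for mapping and DESeq2 for their comparisons. The genome build and settings of that mapping are not given in the sources used here; the submitters' processing notes name GRCm38, TopHat 1.4.1, HTSeq and DESeq with no role. The authors deposited a signal per microRNA and library, which is reads divided by a size factor: 100% of the values were whole multiples of a step for their library (tolerance 0.01 read), and the whole reads were recovered from it. Any pair of libraries of a group differed by a chi-square of at least 327 per degree of freedom, so none repeats the reads of another. The lowest value was between the UIS of M1023 and the unnumbered library. This cannot show that libraries come from different animals. Each counts as a replicate because its label or column gives a different animal number.

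Groups came from the sample labels. The test was limma 3.58.1 (R 4.3.3, trend, two-sided) on log2(value + 1) after a filter that kept microRNAs reaching 10 in 2 or more *Spalax* libraries or 3 or more mouse libraries, with the 8 *Spalax* libraries in 1 fit. Read ratios, with 0.5 read added, were tested by exact sign flips over animals (scipy 1.17.1, Python 3.11.15). Alternatives were edgeR 4.0.16 with TMM factors, DESeq2 1.42.0, scaling to total reads, size factors without muscle microRNAs, a pseudocount of 0.1, no filter, no trend, only the libraries compared, the animal as a replicate block and leaving out each library. By the labels, libraries that share an animal number are the 2 sides of 1 animal. Their deviations from group means correlated at 0.0933 in granuloma, 0.00405 in *Spalax* fibrosarcoma, and -0.107 and 0.122 in M1023 and M512. The fits were also run on simulated data. That simulation gave every microRNA the same spread and had smaller falls than those of the *Spalax* muscle microRNAs. It therefore does not show how the fits perform on these data. The members and lists were chosen with earlier results of these data known. Named microRNAs are the 4 members, for each guide the 3 most alike in each species, and the extremes of each list. Hairpins and positions are from GENCODE M21. Mature sequences were not used here, so no search by seed was made.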

Additional observations from a re-analysis of the deposited data

How the results depend on the processing

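In mouse fibrosarcoma, the calls of all 4 members held under all 14 alternatives. In *Spalax*, miR-222-3p was called in both conditions under all 13. miR-222-5p, which rests on 0 to 7 UIS reads, changed most. In granuloma it was called with DESeq2 (log2 fold change 3.63), with reads scaled to totals (5.26), with size factors without the muscle microRNAs (3.799) and with the replicate block (3.96, adjusted p = 0.0402); the adjusted p over all its alternatives ran from 0.00919 to 0.292. In *Spalax* fibrosarcoma it was not called with a pseudocount of 0.1 (4.79), without the filter (4.46) or without the trend (4.46). The replicate block changed no other call of a member; in mouse it rests on M512 and M1023, and miR-221-3p was then 2.05.

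Leaving out 1 library gave, in granuloma, 2.94 to 4.56 for miR-221-3p, 3.40 to 5.15 for miR-221-5p, 2.24 to 5.69 for miR-222-5p and 1 to 4 members called; miR-222-5p was called without the UIS of Sp600. In *Spalax* fibrosarcoma it gave 3.10 to 5.77 for miR-221-3p, 2.76 to 6.16 for miR-222-5p and 2 to 4 members called; without the UIS of Sp2240, miR-222-5p was not called (4.78). A lone library is then assumed to vary like the other groups.

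For the difference of the granuloma and fibrosarcoma changes, leaving out 1 library gave -2.02 to 0.65 for miR-221-3p, -2.03 to 0.34 for miR-221-5p, -1.41 to 0.51 for miR-222-3p and -2.22 to 1.23 for miR-222-5p, which was 0.87 with a pseudocount of 0.1. Between the UIS groups the ranges were -0.57 to 1.05, -1.10 to 0.65, -0.27 to 1.48 and -1.36 to 2.09 in the same order, and miR-222-5p was -0.35 with edgeR and -0.54 with DESeq2. None of these was called. Without pairing (no replicate block), the ratio of miR-221-3p to miR-221-5p passed the threshold (-0.92), as did that of miR-221-3p to miR-222-3p (-0.73). That setting ignores that the sides come from the same animals. With 0.1 read added, the ratio of miR-222-3p to miR-222-5p was -0.15. Leaving out 1 animal, the adjusted p of each ratio stayed over the threshold, where 5 pairs cannot reach it.

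Scaling to total reads moved the median change of all tested microRNAs to 1.90 in granuloma (0.13 with the deposited scale), 1.4 in *Spalax* fibrosarcoma (-0.23) and 2.58 in mouse (0.21). Relative to those medians, miR-221-3p changed by 3.69, 4.72 and 1.52, against 3.62, 4.67 and 1.501 with the deposited scale. The number of microRNAs called for the difference of changes was 17, and 0 without the filter or with a pseudocount of 0.1, 5 with the replicate block, 61 with DESeq2 and 0 to 39 without 1 library. Without 1 library, the count of all calls fell from 216 to as few as 129 in granuloma (the UIS of Sp976) and from 167 to as few as 77 in *Spalax* fibrosarcoma (the UIS of Sp2240). The cause was not tested. Depth limits miR-222-5p at the *Spalax* UIS, where 3 reads are 2.30e-05% to 2.60e-05% of a library.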
